A study of Mus musculus with 12 samples.

Results

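The enzymes and anchors of cyclic AMP signalling were followed in AtT-20 cells, a mouse pituitary corticotrope tumour line, that express isoforms or relatives of the pioneer transcription factor Pax7. They were chosen by gene name as adenylyl cyclases (Adcy), cyclic nucleotide phosphodiesterases (Pde), catalytic and regulatory subunits of protein kinase A (Prkaca, Prkacb and the Prkar genes), A-kinase anchoring proteins named Akap, the transcription factors Creb1, Crem and Atf1, and Gnas. The rule found 41 of the 16385 genes in the table, and 37 of them had at least 1 FPKM in at least 2 libraries and were tested. Levels were read as FPKM, fragments scaled to the length of the transcript and to the library total. The header of the table names no unit, so shares and orders of level between genes rest on this reading, while comparisons of a gene between libraries do not need the scaling to length.

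The 6 groups had 2 RNA-Seq libraries each. All are stable AtT-20 pools made by retroviral infection with a vector that drives the introduced factor from a CMV promoter, followed by Geneticin selection and pooling of resistant colonies. The Pax7 isoforms carry or lack a glutamine (Q) and a pair of residues, glycine and leucine (GL), in the paired DNA-binding domain, and were Q-GL-, Q-GL+ and Q+GL+. The other pools expressed Pax3, the closest relative of Pax7, itself Q+GL-, or Pax7-465, in which the C-terminus of Pax7 is cut short, or a Pax7 labelled NoTag whose label gives no isoform. The study's methods describe its Pax7 constructs with a Flag tag at both ends, and groups other than NoTag are called tagged here. Control cells without an introduced factor were not analysed here, so every difference is between cells that all carry one. No label of these groups names Pax7 Q+GL-, the study's reference isoform. Samples are described as biological replicates, with no mention of separate infections or cultures, and p-values therefore measure only the spread between these libraries.

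In corticotropes, hormones such as corticotropin-releasing hormone act through the stimulatory G protein, which switches on adenylyl cyclase, and the cyclic AMP made is read by protein kinase A and broken down by phosphodiesterases. Regulatory subunits hold the catalytic subunits of the kinase inactive until cyclic AMP binds, anchors place the enzyme at membranes, mitochondria or the centrosome, and the catalytic subunits phosphorylate CREB family factors. In corticotropes this pathway is known for raising Pomc transcription and hormone secretion.

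Summed FPKM per library ran from 413794 to 483161 in the 10 libraries other than NoTag and were 666609 and 627305 in the NoTag libraries. In the groups other than NoTag, replicate libraries had a Pearson correlation over genes of 0.986 to 0.991. The table gives FPKM without counts, which leaves the depth unknown. Pax7 was near 0.160 FPKM in Pax3 cells and at 93.9 to 113 FPKM in the other tagged groups. Of the genes listed as corticotrope markers, Pomc was at 5112 FPKM or more and Tbx19 at 116 FPKM or more in every library. Tbx19 encodes Tpit, which the study describes as cooperating with Pax7 for the melanotrope fate, so its level does not tell corticotropes from melanotropes. Crhr1, the receptor for corticotropin-releasing hormone, was at 0.484 FPKM or less. Markers of other cells were low, with summed FPKM of at most 0.146 for the 2 markers of other pituitary endocrine cells in the table, 1.07 for 2 of fibroblasts, 0.150 for 1 of endothelium and 0.658 for 2 of macrophages.

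The 4 members that differed among the 5 groups without NoTag are Pde4d, Pde4b, Prkar2b and Prkar1a, and the bases upstream of 1 annotated start of each are shown because the results turn on these genes. Each window holds the 250 bases before the start, 5′ to 3′ on the gene's strand, from RefSeq on GRCm38.p6, and lies at or within 28 bases of a start in the GENCODE M21 annotation. Capitals mark the cyclic AMP response element letters TGACGTCA and the shorter TGACG or CGTCA, searched on both strands, the shorter letters also matching inside the longer ones. The windows are chr13:108653927-108654176 (+) for Pde4d, chr4:102587308-102587557 (+) for Pde4b, chr12:32061278-32061527 (−) for Prkar2b and chr11:109650699-109650948 (+) for Prkar1a.
Pde4d: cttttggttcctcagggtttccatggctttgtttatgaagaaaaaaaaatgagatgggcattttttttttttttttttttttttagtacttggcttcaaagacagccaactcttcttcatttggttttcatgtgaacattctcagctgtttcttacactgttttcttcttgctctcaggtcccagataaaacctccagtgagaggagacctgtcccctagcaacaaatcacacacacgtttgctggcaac
Pde4b: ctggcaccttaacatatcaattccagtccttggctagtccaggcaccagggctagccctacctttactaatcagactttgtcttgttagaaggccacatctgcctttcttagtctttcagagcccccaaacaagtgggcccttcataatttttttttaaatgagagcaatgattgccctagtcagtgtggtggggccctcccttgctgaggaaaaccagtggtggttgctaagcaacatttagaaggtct
Prkar2b: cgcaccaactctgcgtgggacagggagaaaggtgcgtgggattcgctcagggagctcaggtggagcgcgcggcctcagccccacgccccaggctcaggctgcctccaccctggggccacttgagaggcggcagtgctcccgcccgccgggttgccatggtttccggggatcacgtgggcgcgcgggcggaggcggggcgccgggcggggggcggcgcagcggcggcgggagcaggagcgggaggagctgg
Prkar1a: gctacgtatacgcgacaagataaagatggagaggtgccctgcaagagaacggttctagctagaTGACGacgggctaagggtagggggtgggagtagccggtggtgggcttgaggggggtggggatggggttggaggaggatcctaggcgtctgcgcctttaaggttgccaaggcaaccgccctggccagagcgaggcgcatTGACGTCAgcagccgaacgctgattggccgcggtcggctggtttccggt
The windows differed in composition, with 38.8% G and C in Pde4d, 46.8% in Pde4b, 61.6% in Prkar1a and 75.6% in Prkar2b. The full TGACGTCA was in 1 of the 76 windows of 35 members, 1.32%, against 1.55% of all 32851 windows, so the share in members was near that of the table. It is in 1 of the 6 windows of Prkar1a, the one shown, 49 bases before the start. The shorter letters were in at least 1 window of 12 of the 35 genes, and in 16 of the 76 windows, 21.1%, against 17.8% of all windows. Of the 4 windows of Pde4b, 1 holds them, but not the one shown. TAATTA, the core letters of homeodomain sites, was in 0 of the 76 windows and in 4.84% of all. A match is a description of letters, not a site that was measured.

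Gnas, which encodes the stimulatory G protein alpha subunit, was the most abundant member at 1149 to 1386 FPKM over the 10 libraries other than NoTag. This is the value of the whole gene, which spans 62425 bases, and its transcripts were not told apart. The plot of levels by role shows how unequal the members were within each family.

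**Figure D1:**
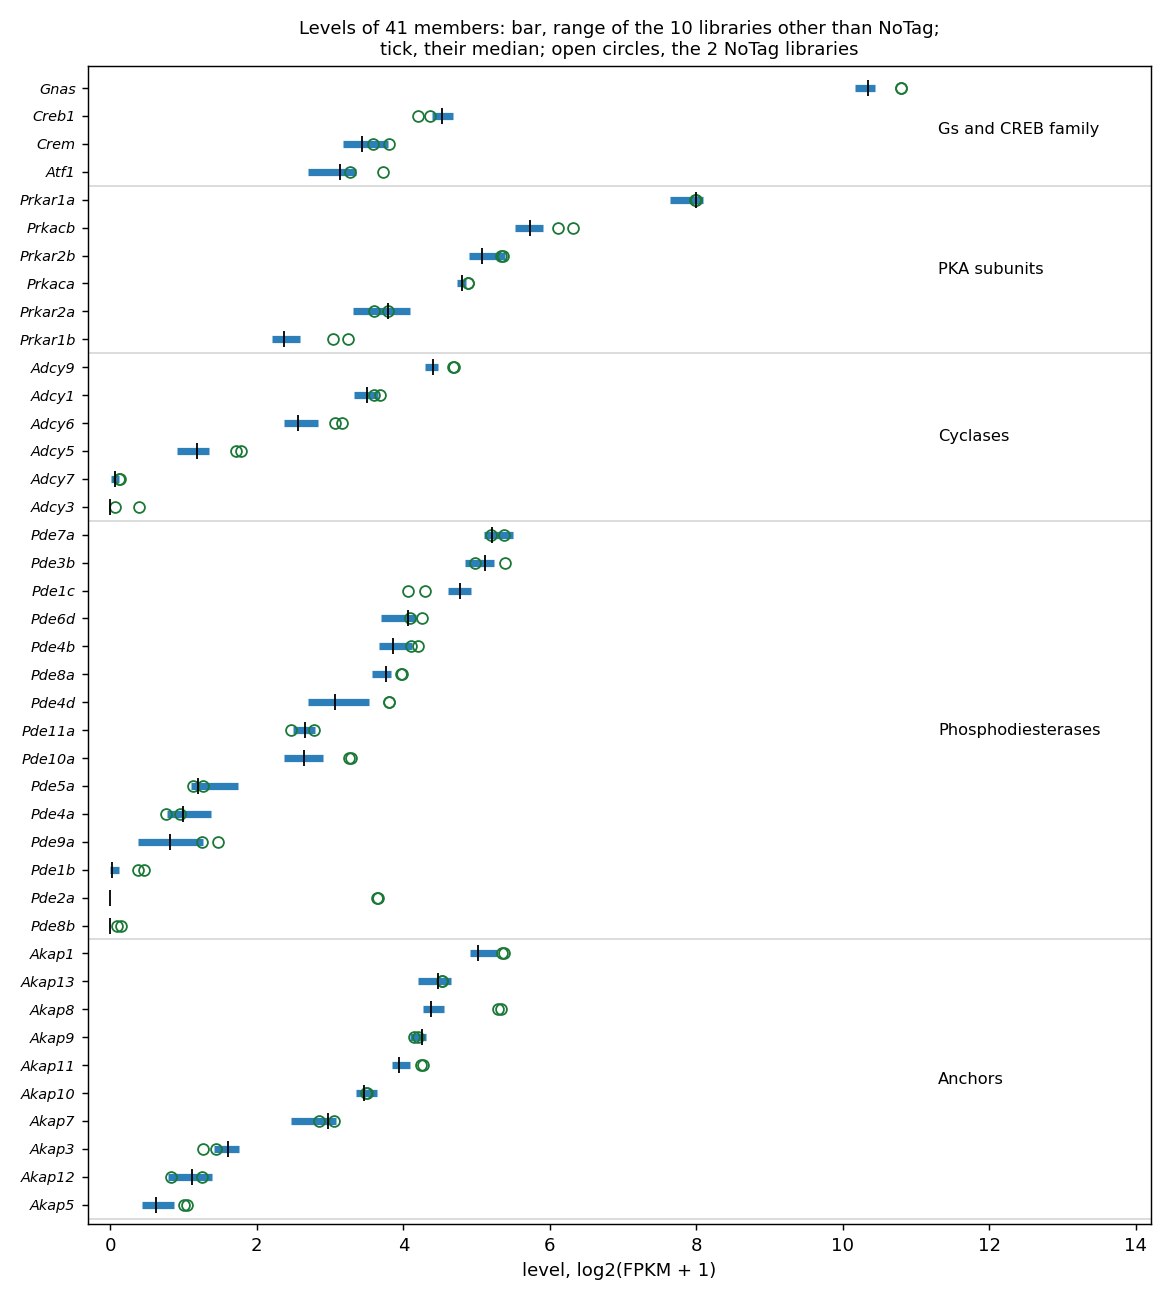
Level of each of the 41 members as log2(FPKM + 1) on the x axis, grouped by role, with bars for the range of the 10 libraries other than NoTag, ticks for their median and open circles for the NoTag libraries. Gnas and Prkar1a stand at the top of their groups, and Pde2a has its NoTag circles far from a median of 0.

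Among the regulatory subunits of protein kinase A, Prkar1a (type I alpha) made up 81.1 to 84.3% of the summed FPKM in these 10 libraries and Prkar2b (type II beta) 9.92 to 12.9%. Of the catalytic subunits, Prkacb made up 62.8 to 68.6%. Summed regulatory over summed catalytic FPKM was 3.43 to 4.18, and 3.23 and 2.91 in the NoTag libraries, which lay below the 10. These are levels of RNA, and in bulk samples fewer cells that express a gene and less RNA per cell cannot be told apart.

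Among the 6 cyclases, Adcy9 held 52.1 to 58.0% of the summed FPKM and the calcium-stimulated Adcy1 25.7 to 30.5%. The calcium-inhibited Adcy6 was at 4.17 to 6.13 FPKM and Adcy5 at 0.878 to 1.53 FPKM, and Adcy7 reached at most 0.0897 FPKM and was not tested. Among the 15 phosphodiesterases, the cyclic AMP-specific Pde7a held 21.3 to 25.9%, Pde3b, which breaks down both nucleotides, 18.3 to 22.2%, and the calcium-calmodulin regulated Pde1c 15.7 to 18.3%. Of the anchors named Akap, the highest was Akap1, which places the kinase at mitochondria, at 29.1 to 37.9 FPKM. Creb1 was at 20.0 to 24.6 FPKM, Crem at 8.01 to 12.9 FPKM and Atf1 at 5.47 to 9.17 FPKM.

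Across the 5 groups without NoTag, the moderated F test of limma called 4 of 37 members, 10.8%, against 4.78% of all genes tested. Pde2a, at 0 in all 10 libraries of this test, could not be called, and without such genes the shares were 4 of 36 members, 11.1%, and 4.79% of all. At an unadjusted p under 0.05 it found 14 members, 37.8%, against 19.5% of all. By family, 2 of the 12 tested phosphodiesterases other than Pde2a and 2 of the 4 regulatory subunits were called, and 0 of the 4 tested cyclases, 2 catalytic subunits, 10 anchors, 3 CREB family genes and Gnas. The range of the group means of a member other than Pde2a had a median of 0.33 on the log2(FPKM + 1) scale, against 0.23 for all genes tested. The largest, 0.70, was in Pde4d, and the smallest was 0.06. Q-GL- had the highest mean of the 5 groups for 16 of 36 members, 44.4%, against 32.4% of all genes, and Pax3 the lowest for 11, 30.6%, against 23.7%.

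Pde4d, a cyclic AMP-specific phosphodiesterase, is on chromosome 13 of GRCm38 from 108449948 to 109953461 on the plus strand. It was at 10.6 and 9.72 FPKM in the Q-GL- libraries (replicates 1 and 2, the order used throughout), 5.47 and 6.29 FPKM in Q-GL+, and 5.70 and 6.38 FPKM in Q+GL+. Pax3 cells had 8.41 and 6.81 FPKM and Pax7-465 cells 7.98 and 8.06 FPKM. Q-GL- was highest with no overlap with any other tagged group, both GL+ groups were lowest and overlapped each other, and Pax3 and Pax7-465 lay between and overlapped (adjusted p of the F test 0.0085, limma).

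Pde4b, the related cyclic AMP-specific enzyme, lies on chromosome 4 from 102087543 to 102607259 on the plus strand. It was at 16.4 and 16.2 FPKM in Q-GL-, 12.5 and 11.8 FPKM in Q-GL+, 13.2 and 13.7 FPKM in Q+GL+, 11.7 and 13.2 FPKM in Pax3 and 14.8 and 15.4 FPKM in Pax7-465. Both Q-GL- libraries were above all others of these groups, and Pax7-465 came next without overlap (adjusted p of the F test 0.036, limma). The members of the Pde4 family, with Pde4a at 0.703 to 1.58 FPKM, summed to 27.9 and 26.9 FPKM in Q-GL-, against 19.1 and 19.2 FPKM in Q-GL+ and 20.1 and 21.1 FPKM in Q+GL+.

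Prkar2b lies on chromosome 12 from 31958476 to 32061296 on the minus strand. It was at 40.7 and 40.4 FPKM in Q-GL- and 38.3 and 40.5 FPKM in Pax7-465, against 33.0 and 29.9 FPKM in Q-GL+, 28.8 and 31.3 FPKM in Q+GL+, and 29.9 and 32.5 FPKM in Pax3. The groups thus split into a higher set, Q-GL- and Pax7-465, which overlapped each other, and a lower set of the 3 others, which overlapped too (adjusted p of the F test 0.012, limma).

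Prkar1a, on chromosome 11 from 109649405 to 109669656 on the plus strand, had another order. Its FPKM were 259.6 and 261 in Q-GL-, 256 and 255 in Q-GL+, 236 and 234 in Q+GL+, 198 and 211 in Pax3 and 271 and 254 in Pax7-465. Pax3 was lowest and Q+GL+ next, with no overlap between these or with the 3 higher groups (adjusted p of the F test 0.038, limma).

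**Figure D2:**
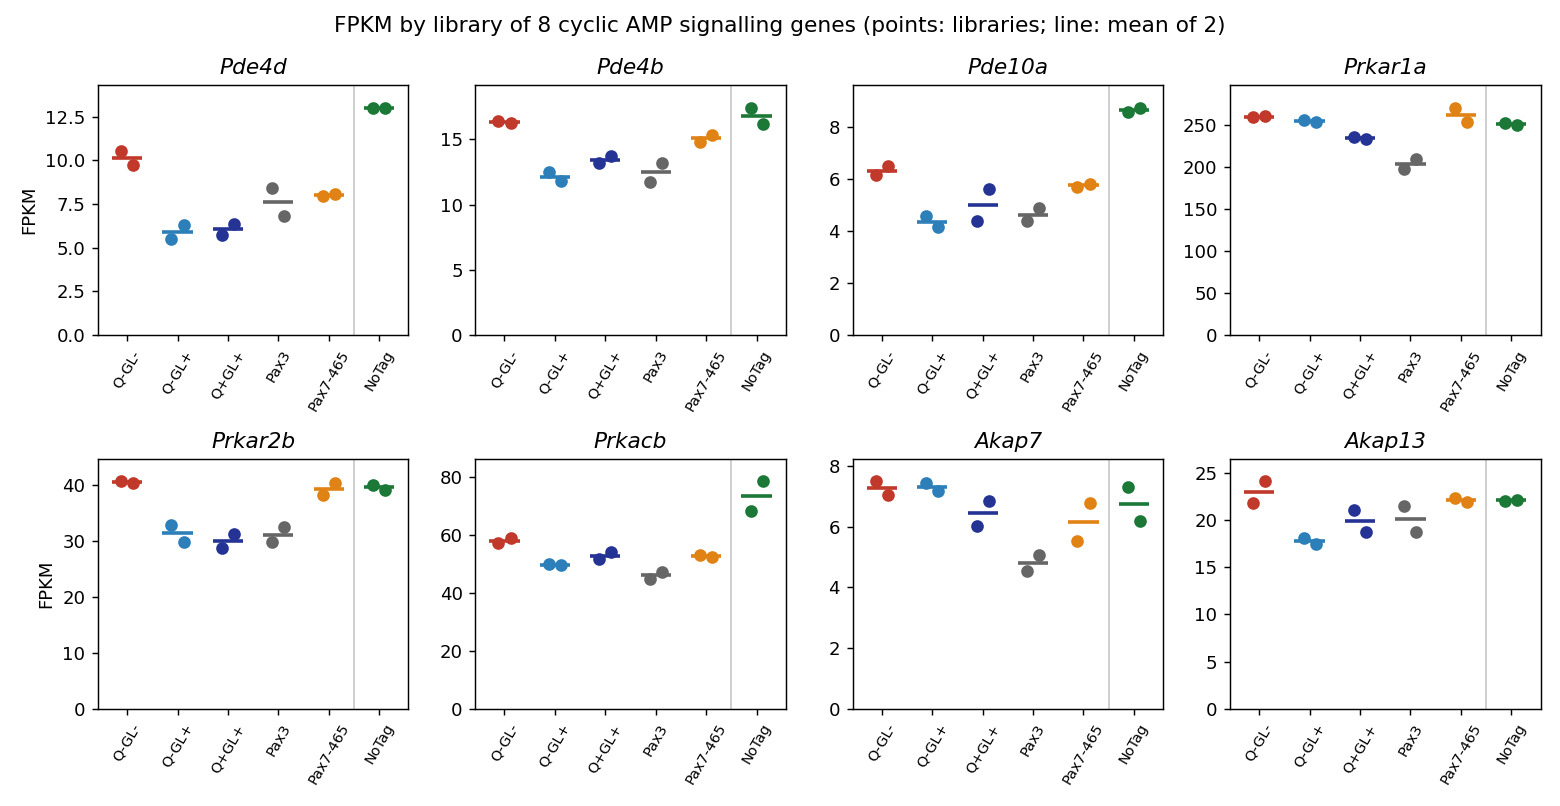
FPKM (y axis, from 0) of 8 members in each library (points) of the 6 groups, with a line at the mean of 2 libraries and NoTag set apart by a grey line. For Pde4d both Q-GL- points, at 10.6 and 9.72 FPKM, lie above the other tagged groups, and for Prkar1a the Pax3 points, at 198 and 211 FPKM, lie below all others.

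The other members had smaller or more variable differences among these groups. Of the phosphodiesterases of cyclic GMP, Pde9a ran from 0.295 FPKM in a Pax3 library to 1.41 FPKM in a Q+GL+ library, and Pde5a from 1.15 to 2.34 FPKM, with its extremes in Q-GL- and Q+GL+. Pde6d, a chaperone of prenylated proteins that shares the family name, ran from 11.95 FPKM in Pax7-465 to 17.1 FPKM in Q-GL+, and Pde8a and Pde11a kept within 10.9 to 13.2 and 4.63 to 5.91 FPKM. Replicates of Q+GL+ were far apart for Pde9a, at 0.675 and 1.41 FPKM, and for the regulatory subunit Prkar2a, at 14.4 and 8.95 FPKM.

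Among the anchors, Akap9, a scaffold of the centrosome and Golgi, was at 16.0 to 18.7 FPKM and Akap10 at 9.27 to 11.5 FPKM. Akap8 was at 18.3 to 22.5 FPKM and Akap11 at 13.4 to 16.0 FPKM. Akap3, known from sperm, was at 1.68 to 2.38 FPKM and the synaptic anchor Akap5 at 0.352 to 0.832 FPKM. Akap9 had an adjusted p of 0.97 in the F test of limma and Prkaca, at 25.7 to 28.1 FPKM, one of 0.96. The minor regulatory subunit Prkar1b was at 3.62 to 5.03 FPKM. Pde1b reached at most 0.0883 FPKM in these libraries and was not tested, like Adcy3, Adcy7 and Pde8b.

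Leaving out 1 library moved these calls. The F test called 0 members without Q-GL- replicate 1, 1 when Q-GL- replicate 2 was left out, and 2 when either Q-GL+ library, the Q+GL+ library of replicate 1 or the Pax7-465 library of replicate 1 was left out. The call for Pde4d was lost in 1 of 16 alternatives, without Q-GL- replicate 1 (adjusted p = 0.063), and that for Prkar2b in 2, without Q-GL- replicate 1 or 2 (0.059 and 0.058), while those for Pde4b and Prkar1a were each lost in 10 of 16.

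The comparison of Q-GL- with Q-GL+ asks what goes with the glycine-leucine pair in isoforms that lack the glutamine. It called 5 of 37 members, all higher in Q-GL-, 13.5%, against 3.06% of all genes called higher and 4.17% called in either direction. Pde2a is 1 of the 37 here and in the other comparisons without NoTag, and at 0 FPKM it could not be called. Pde4d was 0.70 higher on the log2(FPKM + 1) scale (SE 0.11, adjusted p = 0.0026), Pde4b 0.40 (SE 0.08, adjusted p = 0.017) and Prkar2b 0.36 (SE 0.08, adjusted p = 0.024). Pde10a, a phosphodiesterase of both nucleotides, was at 6.15 and 6.50 FPKM in Q-GL- and 4.58 and 4.16 FPKM in Q-GL+, a difference of 0.45 (SE 0.11, adjusted p = 0.038). Akap13, an anchor of the kinase, was at 21.8 and 24.1 FPKM against 18.1 and 17.4 FPKM, a difference of 0.35 (SE 0.09, adjusted p = 0.043). None of the 5 overlapped between the groups. That was also so for many members not called, such as Pde6d and Prkar1a (limma, adjusted p = 0.87 and 0.89).

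At an unadjusted p under 0.05 there were 9 members, 24.3%, against 18.7% of all genes. The median difference of the members was 0.04 and that of all genes 0.04. Crem, a CREB family factor, was at 12.9 and 12.6 FPKM in Q-GL- against 8.41 and 9.41 FPKM, a difference of 0.47 that did not pass (SE 0.14, adjusted p = 0.078). Prkaca and Prkacb, the catalytic subunits, did not pass either. The Prkaca difference was -0.0043 with a 95% interval from -0.16 to 0.15, and the median interval of a member was 0.23 to each side.

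The Pde4d call held in all 11 alternatives, with differences of 0.61 to 0.78. When either Q-GL- library or replicate 2 of Q-GL+ was left out, 1 call was made, and 2 were made when replicate 1 of Q-GL+ was left out. The Akap13 call was lost in 9 of the 11 alternatives and the Pde10a call in 6.

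Against Q+GL+, the isoform with both insertions, 2 members were called, both higher in Q-GL-, against 1.8% of all genes in that direction and 2.15% in either. Pde4d differed by 0.66 (SE 0.11, adjusted p = 0.0062) and Prkar2b by 0.42 (SE 0.08, adjusted p = 0.015). Pde4b differed by 0.26 and did not pass (adjusted p = 0.14). No member was called when replicate 1 of Q+GL+ or replicate 1 of Q-GL- was left out, and only Pde4d when replicate 2 of Q-GL- was. The members' median difference was 0.10 against 0.02 over all genes, and 9 members, 24.3%, had an unadjusted p under 0.05 against 14.3% of all. This comparison shares its Q-GL- libraries with the one against Q-GL+, so the results are not independent.

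Between the GL+ isoforms, Q+GL+ against Q-GL+, 0 members passed limma's test, against 0.962% of all genes, and 4, 10.8%, had an unadjusted p under 0.05 against 13.3% of all. Adcy6 was nearest, at 5.74 and 6.13 FPKM in Q+GL+ and 4.63 and 4.17 FPKM in Q-GL+, a difference of 0.36 (SE 0.09, adjusted p = 0.090).

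**Figure D3:**
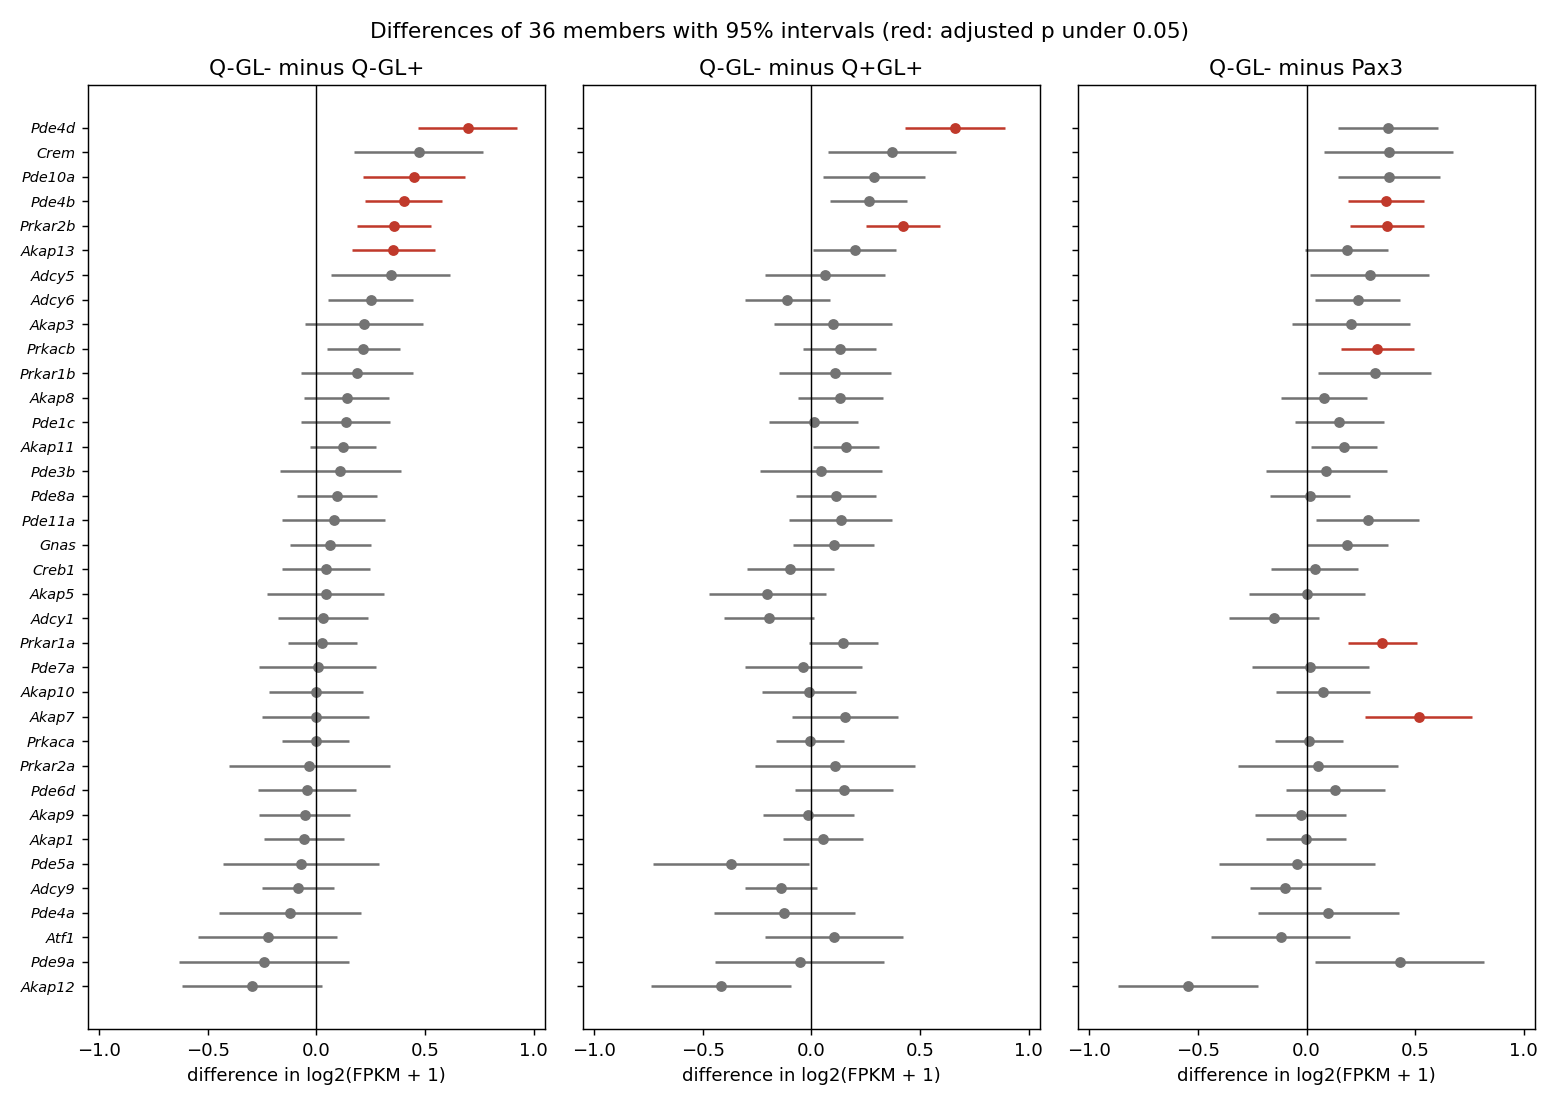
Differences of 36 tested members, without Pde2a, in log2(FPKM + 1) on the x axis for Q-GL- against Q-GL+, Q+GL+ and Pax3, with 95% intervals. Members called in a comparison are red, 5 in the left panel, 2 in the middle and 5 in the right.

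Pax3 carries the glutamine, so a comparison of Q-GL- with it changes both the factor and the glutamine, and a comparison with Q+GL+ both the factor and the GL pair, and these cannot be told apart. Against Pax3, 5 members were higher in Q-GL-, against 3.62% of all genes in that direction and 4.33% in either, and 16 members, 43.2%, had an unadjusted p under 0.05 against 18.2% of all. The members' median difference was 0.13 against 0.04 over all genes, and 30 of 37, 81.1%, were counted above 0 against 61.1% of all. That count includes Pde2a, which was at 0 FPKM in both groups and came out above 0 only by rounding. The members called were Prkar1a, higher by 0.35 (SE 0.07, adjusted p = 0.018), Prkar2b by 0.37 (SE 0.08, adjusted p = 0.019), and Pde4b by 0.37 (SE 0.08, adjusted p = 0.025). Prkacb, a catalytic subunit, was at 57.1 and 58.8 FPKM in Q-GL- and 44.9 and 47.1 FPKM in Pax3, a difference of 0.33 (SE 0.08, adjusted p = 0.034). Akap7, an anchor known at calcium channels, was at 7.49 and 7.06 FPKM against 4.53 and 5.05 FPKM, a difference of 0.52 (SE 0.11, adjusted p = 0.024). Of the kinase subunits, Prkar1a, Prkar2b and Prkacb were called, and Prkaca, Prkar1b and Prkar2a were not (limma, adjusted p = 0.95, 0.18 and 0.91). Those called did not overlap between the groups, but neither did uncalled members such as Akap8 (limma, adjusted p = 0.71).

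Akap12, an anchor of the plasma membrane, went the other way, at 0.792 and 0.721 FPKM in Q-GL- and 1.63 and 1.498 FPKM in Pax3, a difference of -0.55 that did not pass (SE 0.15, adjusted p = 0.061). It passed under quantile normalization (4 members higher, 1 lower), under median centring and without the NoTag libraries (5 higher, 1 lower in each). Without Q-GL- replicate 1 or 2 no member was called, and without Pax3 replicate 1 only Pde4d was (adjusted p = 0.046). Q+GL+ against Pax3 called 0 members with limma, against 0.262% of all genes, with 6, 16.2%, at an unadjusted p under 0.05 against 10.2% of all.

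The truncated Pax7-465 was set beside both isoforms. The study's supplement calls its Pax7 mutants Q+GL-, while the sample labels give no isoform for Pax7-465. If that holds for it, it would differ from Q+GL+ also by the GL pair and from Q-GL- also by the glutamine, and the truncation and the insertion cannot be told apart. Against Q+GL+ it had 1 member called, Prkar2b, higher by 0.38 (SE 0.08, adjusted p = 0.036), against 0.867% of all genes called higher and 1.33% in either direction, and this call was lost in 8 of 11 alternatives, each library left out included. Against Q-GL- limma called 0 members, against 0.445% of all genes, and 3, 8.11%, had an unadjusted p under 0.05 against 10.8% of all. Pde4d was 0.30 lower there, at 7.98 and 8.06 FPKM against 10.6 and 9.72 FPKM, and did not pass (adjusted p = 0.31).

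The libraries labelled NoTag stood apart. Of all genes listed, 733, or 4.47%, were above 0 in both NoTag libraries and at 0 in the other 10, and 3 members were among them. Pde2a, a phosphodiesterase of both nucleotides that cyclic GMP stimulates, was at 11.5 FPKM in each NoTag library and listed at 0 in the other 10. Adcy3 was at 0.0428 and 0.315 FPKM and Pde8b at 0.102 and 0.0631 FPKM, and they too were listed at 0 elsewhere.

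Genes that every cell uses had the same pattern, with Rnasek at 37.1 and 40.4 FPKM and Rbm42 at 60.7 and 58.5 FPKM in NoTag and at 0 in the other 10, so a 0 there may not be an absence of RNA and no fold is given for Pde2a. The study assayed Pax7 recruitment at Pde2a by ChIP-qPCR in AtT-20 cells. It describes the locus as one where Pax7 is only a transcriptional activator. Recruitment does not give the RNA level. Pde2a lies on chromosome 7 from 101421691 to 101512827 on the plus strand. In GENCODE M21 the protein-coding gene Gm45837, from 101410886 to 101512819 on the same strand, covers nearly all of it, and Gm45837 was not a row of the table used here. Adcy3 overlaps Cenpo on the opposite strand. Whether separate quantification or these overlaps gave the 0 values was not tested.

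NoTag and Q+GL+ may differ in the tag, in the isoform and in the quantification, and these cannot be told apart. In NoTag against Q+GL+, 18 members were called, 16 higher and 2 lower, 48.6%, against 46% of all genes, 36.9% higher and 9.02% lower, so the share of members called was near that of the table. Without Pde2a, which passed the filter only through the NoTag libraries, there were 17, 15 of them higher. The median of all genes was itself 0.18 higher in NoTag, and the members' median was 0.21. Under median centring 10 members were higher and 4 lower, and under quantile normalization 9 were higher and 4 lower.

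Some members stood well above that shift. Akap8, a nuclear anchor, was at 39.4 and 38.1 FPKM in NoTag and 18.8 and 19.4 FPKM in Q+GL+, a difference of 0.98 (adjusted p = 4.7e-06). Pde4d was at 13.0 FPKM in both NoTag libraries, a difference of 0.99 (adjusted p = 1.5e-05). Pde1c was lower, at 18.6 and 15.7 FPKM against 27.9 and 27.8 FPKM, a difference of -0.67 (adjusted p = 1.3e-04). All libraries of the 2 groups were apart for these genes, as they were for Prkar1a, which was not called (limma, adjusted p = 0.27).

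The regulatory subunit Prkar1b was at 7.25 and 8.44 FPKM in NoTag against 5.03 and 3.95 FPKM, a difference of 0.69 (adjusted p = 5.9e-04), and Pde10a at 8.58 and 8.77 FPKM against 4.40 and 5.64 FPKM, also 0.69 (adjusted p = 3.0e-04). Prkacb, at 68.1 and 78.5 FPKM, differed by 0.46, so NoTag had the highest Prkacb of the 6 groups. The remaining members called higher were the cyclases Adcy5, Adcy6 and Adcy9, the phosphodiesterases Pde4b and Pde8a, the anchors Akap1 and Akap11, and Prkar2b and Atf1, with differences of 0.22 for Adcy9 to 0.52 for Atf1. Of these, the calls for Adcy6, Adcy9, Atf1, Pde4b and Pde8a were lost under both quantile normalization and median centring.

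Gnas was at 1779.8 and 1771 FPKM in NoTag, 0.48 above Q+GL+ (adjusted p = 7.3e-04), but this became -0.020 under quantile normalization (adjusted p = 0.81). Creb1, at 19.5 and 17.4 FPKM in NoTag, was lower by 0.35 on the log2 scale (adjusted p = 0.0085), a call lost when replicate 2 of NoTag (adjusted p = 0.083) or replicate 2 of Q+GL+ (0.061) was left out. Prkar1a was at 253 and 251 FPKM and did not pass, and neither did Prkaca at 28.4 and 28.6 FPKM.

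Annotation limits a few other members. Of the 41, 24 overlap another gene in GENCODE M21, 10 of them on the same strand, and 5 overlap a protein-coding gene, namely Adcy3, Pde10a, Gnas, Akap9 and Pde2a. The reads were strand-specific, but whether the counting used strand is not stated, so reads of such pairs may not be told apart.

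In lists of related genes, the F test among the 5 groups called 6 of 65 tested, 9.23%, against 4.78% of all genes. By list, these were 0 of 5 tested receptors, 1 of 10 other G protein alpha subunits, 2 of 12 beta and gamma subunits, 1 of 4 genes of the kinase inhibitor list, 0 of 6 other cyclic AMP effectors, 0 of 5 CREB coactivators, 1 of 9 CREB target genes (Junb, 1 of the 9, was at 0 in all 10 libraries and could not be called), 1 of 11 anchors under other names and 0 of 3 cyclic GMP genes. Among the uncalled lists the smallest adjusted p were those of the somatostatin receptor Sstr3 (0.14), the exchange factor Rapgef4 (0.25), the coactivator Crtc3 (0.47) and the guanylyl cyclase subunit Gucy1b1 (0.17).

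Sphkap, an anchor for type I protein kinase A, was at 8.27 and 8.16 FPKM in Q-GL-, 4.27 and 4.11 FPKM in Q-GL+, 3.72 and 4.06 FPKM in Q+GL+, 4.23 and 4.65 FPKM in Pax3 and 5.95 and 5.81 FPKM in Pax7-465. Q-GL- was highest and Pax7-465 next, each without overlap, and Q-GL- differed from Q-GL+ by 0.83 (SE 0.09, adjusted p = 3.2e-04). Gng4, a G protein gamma subunit, was 0.62 above its Q-GL+ level in Q-GL- cells (adjusted p = 0.0013), and Gnb3, a beta subunit, 0.53 higher (adjusted p = 0.0080). Pkia, an inhibitor of the kinase, was at 14.4 and 13.0 FPKM in Q-GL- and 7.88 and 8.56 FPKM in Q+GL+, a difference of 0.67 (adjusted p = 0.012). In Q-GL- against Q-GL+ and against Pax3, 0 of the 4 genes of its list were called. Of the 12 beta and gamma subunits, 1 was called in Q-GL- against Q+GL+ and 2 against Pax3.

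Gna14, of the Gq class, was lowest in Q-GL+, with Q-GL- 0.43 and Q+GL+ 0.43 above it (adjusted p = 0.018 and 0.044). Of the CREB targets, Dusp1, a phosphatase of MAP kinases, passed the F test (adjusted p = 0.030), at 10.3 and 12.6 FPKM in Q-GL+, where its mean was highest, 10.1 and 10.6 FPKM in Q-GL- and 6.72 and 7.87 FPKM in Pax3, where it was lowest, and Q-GL- was 0.45 above Pax3 (adjusted p = 0.045). Ppargc1a, a metabolic coactivator, was lower in Q-GL- than in Pax3, at 1.46 and 1.78 against 4.38 and 2.83 FPKM (adjusted p = 0.039). Sik1, a kinase induced by cyclic AMP, differed by 0.37 between Q-GL- and Q-GL+, with Q-GL- higher (adjusted p = 0.026). Of the 9 tested CREB targets, 0 were called in Q-GL- against Q+GL+, and 3 against Pax3, 2 higher and 1 lower in Q-GL-.

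Cell type markers also differed between the groups. Of the 4 tested melanotrope markers, 1 is Pax7, whose level the constructs set, and the other 3 passed the F test. Against Q-GL+, Q-GL- was higher for Pcsk2, at 35.8 and 36.6 FPKM against 16.2 and 15.4 FPKM, and for Oacyl, at 11.1 and 10.6 FPKM against 4.34 and 4.11 FPKM, while Megf11, at 80.3 and 92.2 FPKM against 93.4 and 90.7 FPKM, did not pass (adjusted p = 0.62). Of the 6 tested genes listed as corticotrope markers, Pcsk1, a prohormone convertase, passed the F test. It was at 385 and 391 FPKM in Q-GL-, 291 and 270.3 FPKM in Q-GL+ and 225 and 259 FPKM in Pax3, with Q-GL- higher than each of these groups (adjusted p = 0.015 and 0.0011). Pomc was at 8622 and 9158 FPKM in Q-GL-, 7226 and 6593 FPKM in Q-GL+ and 5112 and 6422 FPKM in Pax3, and Q-GL- was higher than Pax3 (adjusted p = 0.015) while the difference from Q-GL+ did not pass (adjusted p = 0.14). The part of these markers in the results for the members was not tested.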

How the data were processed

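The deposited values per gene were read as FPKM, although neither the header nor the methods name the unit: they are not whole, and their sums differ between libraries. The authors trimmed strand-specific paired-end reads of ribosome-depleted RNA with Trimmomatic, aligned them to GRCm38 (mm10) by TopHat2 with known junctions only, and quantified genes by HOMER. The sources used here do not give the tool versions of these steps, the total used for scaling or a filter on genes. Used were 12 libraries, and 4 further columns of values were not used. The table holds no counts, so edgeR, which the authors name, was not run.

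A pseudocount of 1 was added before taking log2. Genes reaching 1 FPKM in 2 or more libraries, 12578 in number, were fitted together by limma-trend, robust, with a coefficient for each of the 6 groups, which thus share an estimate of the spread. Genes called have a Benjamini-Hochberg adjusted p under 0.05 over all genes tested. Differences understate the change of low genes on this scale. The 8 comparisons and the F test used limma 3.58.1 under R 4.3.3, and plots used matplotlib 3.10.9. The fit was tested on simulated data. Starts in the file count from 0, and 39 of 41 spans equal those of GENCODE M21 once 1 is added.

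Members and gene lists were chosen with earlier results of these data known. Named are all members, those past the F test in full, and from each related list up to 3 genes with the smallest adjusted p in the F test. Other genes or comparisons named were chosen after their values were seen. Alternatives were quantile normalization, median centring, a pseudocount of 0.1, no filter, only the groups compared, no NoTag libraries, a replicate block and each library left out in turn.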

Additional observations from a re-analysis of the deposited data

How the results depend on the processing

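The counts of members called depended on single libraries. In Q-GL- against Q-GL+, 5 became 3 with no filter and 3 without the NoTag libraries, and 1 to 2 when a library was left out. In Q-GL- against Q+GL+, 2 became 0 to 2 when a library was left out. In Q+GL+ against Q-GL+, quantile normalization gave 1 in place of 0. In Q-GL- against Pax3, 5 became 1 with only the groups compared and 0 to 5 when a library was left out. In Pax7-465 against Q+GL+, 1 became 2 under quantile normalization, 0 with no filter, with only the groups compared, without the NoTag libraries or with the replicate block, and 0 when any library was left out. The F test went from 4 to 2 with only the groups compared, 2 with the replicate block, and 0 to 4 when a library was left out. Gnas in NoTag against Q+GL+ reversed, from 0.48 to -0.020, under quantile normalization. The remaining alternatives kept each count within 1.5 times, and the cause of each move was not tested. A group left with 1 library was assumed to vary like the others.

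No clear pairing of libraries by replicate number was seen, and the weak correlations below cannot exclude it. Over 15 pairs of groups, the correlation of differences between replicates 1 and 2 ran from -0.158 to 0.173, and 2 pairs were over 0.1. With the replicate block, Q-GL- against Q-GL+ called 4 members. The depth behind the FPKM is unknown, so no counting interval is given. With 2 libraries a group, the median 95% interval of a member was 0.23 to each side on the log2 scale. The width differed between members, and a difference whose own interval holds 0 could not be told from 0.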
